A study of Mus musculus with 6 samples.

Results

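Forkhead box (Fox) genes encode transcription factors that share the forkhead domain, a winged-helix fold that binds DNA. Most members direct the development of a particular organ or cell lineage, a few open closed chromatin as pioneer factors, and the FoxO branch answers to PI3K-AKT signalling. CpG-rich promoters of developmental regulators are as a rule free of DNA methylation also in cells that do not use the gene, whereas methylation covers much of the remaining genome of spermatogonia.

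The genes were taken from the deposited methylation table as autosomal rows whose gene name is Fox, a letter and a number, with or without a closing letter. The rule selected 41 of the 31751 genes in the table, which lie on 14 autosomes, and used gene names only, not methylation values. A further 3 forkhead genes on the X chromosome, with 120 sites, were left out because only autosomes were used, and 1 other family member was not analysed here.

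The data are reduced representation bisulfite sequencing (RRBS) of germline stem (GS) cells, which are spermatogonia kept in long-term culture. The cells carry the genotype DBA/Tg14(act-EGFP-OsbY01), that is, an EGFP transgene driven by an actin promoter that was bred from C57BL6 mice into DBA/2. Space GS cells were frozen and kept for 6 months on the International Space Station (ISS), and Ground GS cells were frozen and kept on Earth for the same 6 months, with 3 biological replicates in each group. According to the study's methods, the cells were grown on mouse embryonic fibroblast feeders with growth factors and were passaged after thawing before analysis, so both groups share the genotype, the freezing, the thaw and the culture. The labels do not say whether the replicates came from separate thaws or animals, and the p-values measure only the spread between these samples.

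RRBS counts, at each CpG site, the reads that carry a methylated cytosine, and the methylation level is their percentage among all reads of the site. Sites with 10 or more reads in all 6 samples are called commonly covered here, and they were 3201 of the 7129 sites assigned to a forkhead gene (44.9%), against 30.1% of all sites in the table. Forkhead sites were read 100660 to 119186 times per sample, with a median coverage of 29 to 34 reads per site. At the coverage minimum 1 read is worth 10 percentage points, and intervals and limits given for reads cover counting error only. In sums over sites a read is counted at each site that it covers. Limits from such sums treat these counts as separate reads, so they are too low where sites share reads. Of the 41 genes, 40 had a commonly covered site, with a median of 67 sites per gene. Foxc1 had the most (228 sites), followed by Foxo6 (203), Foxa1 (174) and Foxd1 (173).

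Foxj3, a factor needed for spermatogenesis, had no commonly covered site. It had 12 sites in the table, all 8735 to 17435 bp from the transcription start site (TSS) and none read more than 8 times in any sample. Over all samples, 95.8% of its 214 reads were methylated, so nothing can be said here about its promoter.

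For each gene, reads were summed over sites within 1 kb of the TSS, at 1 to 5 kb and beyond 5 kb. Within 1 kb, 36 genes had commonly covered sites (1492 sites). At 1 to 5 kb there were 34 genes (1144 sites), beyond 5 kb there were 28 genes (565 sites), and 24 genes had sites in all 3 classes. Foxh1, Foxj3, Foxn1, Foxq1 and Foxr1 had no commonly covered site within 1 kb.

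The cell type in the labels can be set against marker promoters only in part, since methylation does not measure expression. Of 20 germline genes whose promoters are methylated in somatic cells, 15 had commonly covered sites within 1 kb, and 13 of them were under 10% methylated. The germline genes above 10% were Piwil1, at 94.8% over 1 site, and Dpep3, at 26% over 2 sites. Summed over the germline promoters, the level was 2.76 to 3.28% in the Space samples and 2.02 to 4.21% in the Ground samples. Of 12 fibroblast genes, chosen for the feeder cells, 6 had sites within 1 kb and 5 of these were under 10%, with summed levels of 1.29 to 2.06% in Space and 1.30 to 2.65% in Ground. Among all autosomal genes with sites within 1 kb, 14295 of 15878 were also under 10%. The counts under 10% therefore do not set the germline or the fibroblast list apart from other genes. Whether the samples match the labelled cell type was not tested. How much DNA of feeder cells the samples held was not tested either.

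Forkhead promoters were nearly free of methylation in both groups. Within 1 kb of the TSS the median gene level was 1.88%, 34 of 36 genes were under 4% and 35 were under 10%. A level under 10% was common to most genes, with 14295 of 15878 autosomal genes with sites within 1 kb. It was also found in 32 of 33 Hox genes and 35 of 37 Pax, Sox, Gata and Tbx genes. The forkhead range ran from 0.752% in Foxl2 to 23.9% in Foxi1. Averaged over genes, Space GS cells measured 2.84% ± 0.545 (SD, n = 3), and the Ground samples measured 2.59% ± 0.802 (SD, n = 3). The per-sample means were 3.46, 2.43 and 2.64% in Space 1, 2 and 3, and 3.52, 2.19 and 2.07% in Ground 1, 2 and 3. Space 1 and Ground 1 were the highest of their groups, and the groups overlapped. The same samples had the highest median over all autosomal genes within 1 kb, 1.96% in Space 1 and 1.99% in Ground 1 against 1.38 to 1.67% in the other samples, and the part of this in the forkhead values was not tested. Bisulfite conversion rates are not given in the sources used here, and how much of a level near 2% is unconverted cytosine was not tested.

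**Figure D1:**
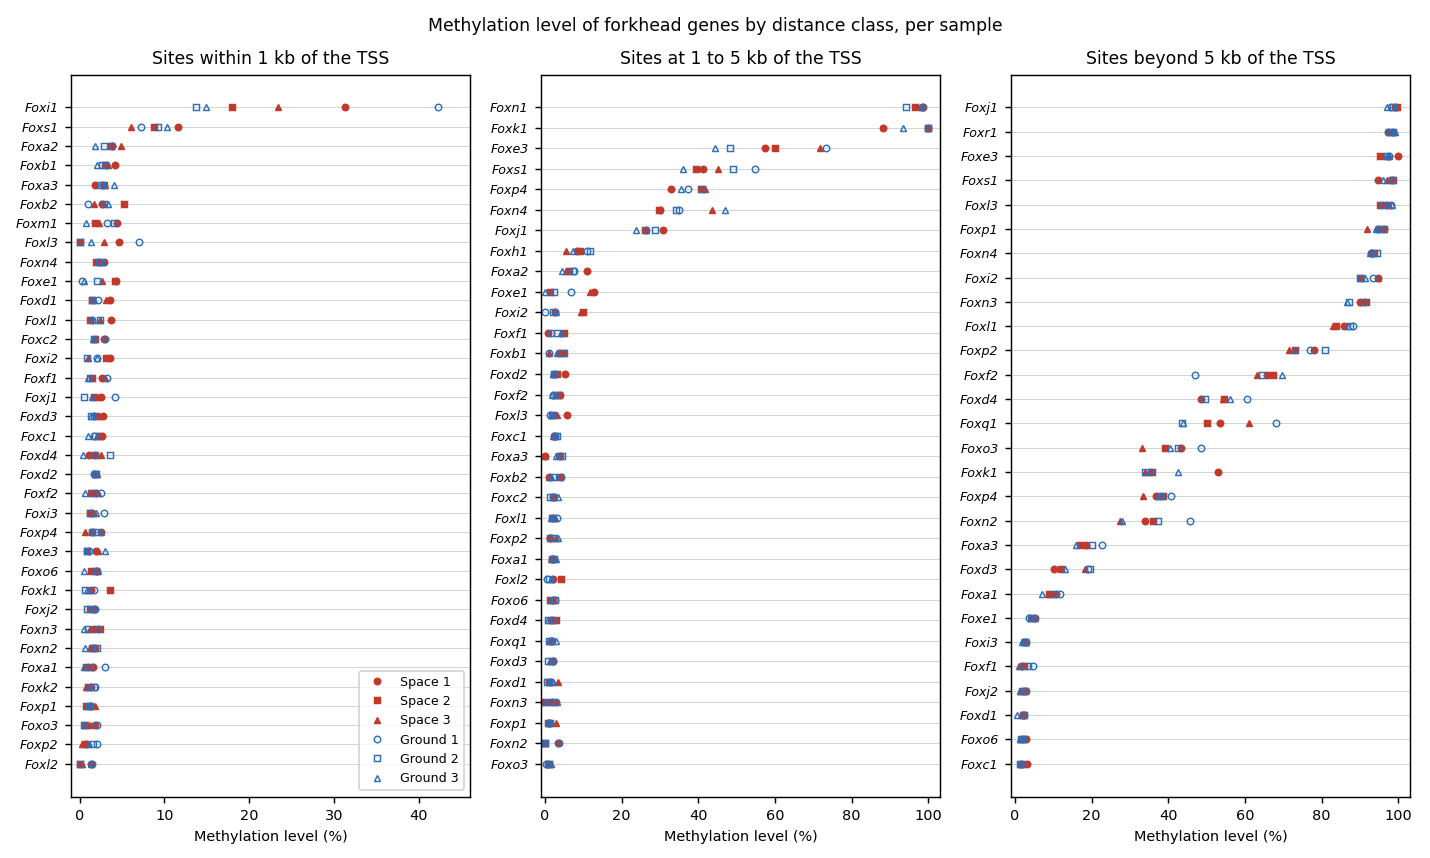
Methylation level in percent (x axis) of the forkhead genes reported by name (y axis, ordered by mean level) in the 3 Space samples (filled red) and the 3 Ground samples (open blue), in 1 panel for each distance class. Within 1 kb, where the x axis ends at 46%, all genes but Foxi1 have a mean level under 10%, while beyond 5 kb the gene means run from 1.81 to 98.6%.

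Genes with known roles in germ cells, pluripotent cells or the gonad were among the unmethylated promoters. Foxo3, a FoxO factor that AKT phosphorylates and that restrains growth, had levels of 1.81, 0.625 and 1.26% in Space and 2.01, 0.571 and 0.503% in Ground over 60 sites. Foxc2, a marker of quiescent spermatogonial stem cells, had 2.85, 1.86 and 1.72% in Space and 3.03, 1.73 and 1.53% in Ground over 49 sites. The highest value of either gene was in Ground 1, and the groups overlapped in both.

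Foxm1, which drives genes of the G2/M phase, measured 2.84% ± 1.39 (SD, n = 3) in Space and 2.70% ± 1.69 (SD, n = 3) in Ground. Foxp1, a repressor with roles in lymphocytes and muscle, measured 1.27% ± 0.526 (SD, n = 3) and 1.16% ± 0.0963 (SD, n = 3). Foxj1, the master regulator of motile cilia, was at 2.04% ± 0.422 (SD, n = 3) in Space and 2.03% ± 1.93 (SD, n = 3) in Ground. In these genes the group difference was smaller than the spread between replicates of at least 1 group. Foxl2, which maintains granulosa cells of the ovary, had no methylated read in Space 2 (0 of 168, summed over sites) or Ground 2 (0 of 238). Taken as separate reads, these sums allow levels of up to 1.79% and 1.26%. The 7 sites lie within 68 bp and were each read 24 to 48 times per sample, so they can share reads and the true limits are higher. Its other levels were 1.40% in Space 1, 0.298% in Space 3, 1.43% in Ground 1 and 1.39% in Ground 3.

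The FoxA pioneer factors of the endoderm also had low promoters. Foxa1 had a mean level of 1.39% over 20 sites, Foxa3 2.84% over 13 sites and Foxa2 3.48% over 19 sites. In Foxa2, 18 of the 19 sites were at or under 2.77%. The remaining site, on chromosome 2 at 147889408 (520 bp upstream of the TSS, build mm39), was 50, 75 and 54.5% methylated in Space and 47.8, 55.6 and 50% in Ground, with 12 to 33 reads per sample. Both groups were thus partly methylated at this site, between sites that were nearly unmethylated.

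Across the 36 genes, 15 sites within 1 kb had a mean level over 10%, and they belonged to Foxi1 (9 sites), Foxs1 (5 sites) and Foxa2 (1 site). Foxi1, a regulator of ion-transporting cells in the inner ear and kidney, was the one promoter over 10%. Its 9 sites lie 50 to 233 bp downstream of the TSS (chr11:34157855-34158038, build mm39, minus-strand gene) and were read 197 to 278 times per sample in all. The level was 31.2, 18.0 and 23.4% in Space and 42.3, 13.7 and 14.8% in Ground. Ground 1 and Space 1 were the highest, the groups overlapped, and the difference of the means (0.594 points) was far smaller than the Ground SD of 16.2 points. Leaving out 1 sample moved this difference between -4.36 (without Ground 2) and 9.93 points (without Ground 1). Every one of the 9 sites was partly methylated, with means of 10.2 to 30.3%, so the level of Foxi1 did not come from a single site. Neighbouring sites had equal or nearly equal coverage, so they can share reads and are not separate measurements.

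Foxs1, a factor of perivascular cells, was next, at 11.5, 8.80 and 6.03% in Space and 7.19, 9.27 and 10.3% in Ground over 17 sites. Its highest sites, 212 and 227 bp downstream of the TSS, had means of 16.7 and 13.4%. Neither group was consistently above the other.

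**Figure D2:**
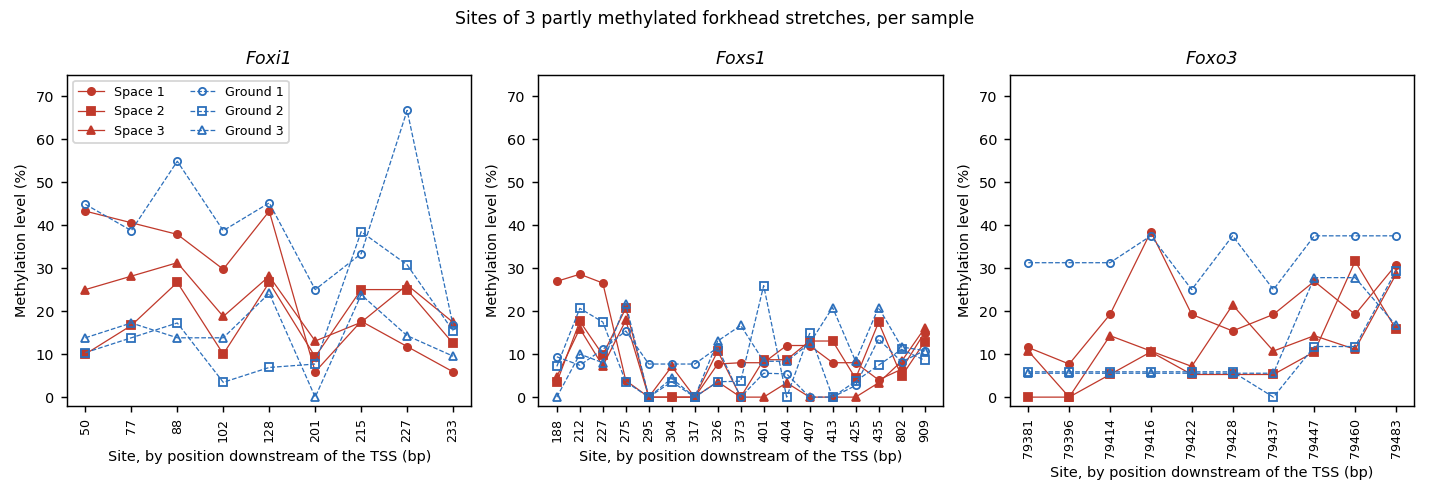
Methylation level in percent (y axis) at each site of 3 partly methylated stretches, by position in bp downstream of the TSS (x axis), with 1 line per sample. In Foxi1 and in the Foxo3 stretch Ground 1 lies above the other samples at most sites, and at the Foxs1 promoter the 6 samples are interleaved.

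Promoter sequences are shown for the most methylated promoters that had one and for Foxd2, the unmethylated promoter with the most sites. They are the RefSeq windows of build GRCm38.p6, from 250 bases before to 50 bases after a gene start, 5′ to 3′ on the gene's strand, with each CG, the target of methylation, in capitals. Since the methylation sites are in mm39, single sites were not placed on these letters. The windows end 50 bases after a gene start, whereas the Foxi1 sites lie 50 to 233 bp downstream, so the measured stretch is largely not shown. The Foxa2 site over 10%, 520 bp upstream, is farther out than the 250 bases of a window. The Foxi1 window is chr11:34208040-34208339 (minus strand) and holds 6 CG. The Foxa2 window is the one farthest upstream of 3 starts, chr2:148046920-148047219 (minus strand), with 12 CG. The Foxd2 window is chr4:114908849-114909148 (minus strand), with 26 CG.
Foxi1: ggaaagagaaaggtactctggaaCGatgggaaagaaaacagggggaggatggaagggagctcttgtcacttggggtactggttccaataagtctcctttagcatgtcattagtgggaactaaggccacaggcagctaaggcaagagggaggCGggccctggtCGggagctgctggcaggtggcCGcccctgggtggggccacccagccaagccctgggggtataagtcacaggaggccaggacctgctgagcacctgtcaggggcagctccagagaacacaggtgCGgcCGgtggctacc
Foxa2: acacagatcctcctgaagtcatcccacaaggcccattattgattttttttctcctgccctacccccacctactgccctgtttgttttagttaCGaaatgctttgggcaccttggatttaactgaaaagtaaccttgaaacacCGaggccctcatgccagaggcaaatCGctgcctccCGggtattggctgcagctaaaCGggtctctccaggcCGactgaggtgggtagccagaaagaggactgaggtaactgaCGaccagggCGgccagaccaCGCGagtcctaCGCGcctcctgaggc
Foxd2: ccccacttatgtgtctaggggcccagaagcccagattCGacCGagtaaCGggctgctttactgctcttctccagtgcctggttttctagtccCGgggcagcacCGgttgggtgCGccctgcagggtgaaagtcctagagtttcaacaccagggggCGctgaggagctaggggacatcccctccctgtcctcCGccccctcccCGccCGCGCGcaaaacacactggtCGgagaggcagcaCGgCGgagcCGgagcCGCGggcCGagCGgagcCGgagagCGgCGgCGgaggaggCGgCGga

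The Foxi1 window, whose gene was the most methylated, held fewer CG than most forkhead windows, and the Foxd2 window more than the median. Windows of Foxi2 (5 CG) and Foxn3 (6 CG) held no more CG than that of Foxi1, with levels of 2.10 and 1.49% within 1 kb. Whether the number of CG goes with the level was not tested. Windows were found for 25 of the 41 genes, with a median of 22 CG (range of gene means 5 to 59) and 65.3% G and C. Over 25748 autosomal genes the medians were 7.5 CG and 53.0% G and C. Of the 25 genes, 21 (84.0%) had 10 or more CG, against 44.95% of all autosomal genes. Foxd2, a factor of the facial and kidney mesenchyme, measured 1.83, 1.88 and 2.08% in Space and 1.70, 1.80 and 1.82% in Ground over 108 sites, the smallest spread within groups among the promoters shown.

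No forkhead promoter differed between Space and Ground GS cells after adjustment over all genes. A quasi-binomial test with limma's moderated dispersion and Benjamini-Hochberg adjustment called 0 of the 36 genes, beside 0% of 14361 genes tested, and the smallest adjusted p was 0.925. At an unadjusted p under 0.05 there were 3 of 36 genes (8.33%), against 5.33% of all genes tested. edgeR's quasi-likelihood test called 0 genes, with 1 of 36 genes at an unadjusted p under 0.05, beside 572 of all 14361. The level was higher in Space for 24 genes (66.7%) and lower for 12, and in 27 genes the difference was under 1 SD. The share higher in Space was 54.2% over all autosomal genes, 56.25% in Hox genes and 73.0% in Pax, Sox, Gata and Tbx genes.

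The smallest p belonged to Foxe1, a factor of thyroid development, with 4.25, 4.19 and 2.59% in Space and 0.323, 2.06 and 0.472% in Ground over 13 sites. The Space samples all lay above the Ground samples, with means of 3.68% ± 0.945 (SD, n = 3) and 0.952% ± 0.964 (SD, n = 3). The unadjusted p was 0.0111 and the adjusted p 0.925 in the limma-moderated test, so the difference of 2.72 points did not pass. Leaving out 1 sample gave differences of 2.41 to 3.28 points.

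Foxd3, a factor of neural crest and pluripotent cells, had 2.77, 1.89 and 2.30% in Space and 1.65, 1.37 and 1.32% in Ground over 70 sites. Its limma-moderated p was 0.0466 unadjusted and 0.934 adjusted, and with sites up to 0.5 kb only the difference shrank from 0.875 to 0.268 points. Foxc1, a factor of mesoderm, eye and vessels, had 2.64, 2.24 and 2.01% in Space and 1.64, 1.82 and 0.945% in Ground over 91 sites, with an adjusted p of 0.935 in the same test. In both genes all Space samples lay above all Ground samples.

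Foxk1, a repressor of autophagy genes, had 3.62% in Space 2 and 0.683 to 1.73% in the other samples, and its groups overlapped. Foxd1, a factor of the kidney stroma, measured 2.70% ± 1.12 (SD, n = 3) in Space and 1.78% ± 0.328 (SD, n = 3) in Ground. Groups did not overlap in 5 genes. Space was higher in 4 of them (Foxe1, Foxd3, Foxc1 and Foxd2), where 5.69% of all genes tested did so, and lower in Foxp2, where 3.86% did so. Foxp2, a factor of speech-related circuits, had 0.710, 0.668 and 0.238% in Space and 2.02, 1.59 and 1.12% in Ground. With 3 samples against 3, the exact permutation test (two-sided) cannot give a p under 0.1 for any gene.

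**Figure D3:**
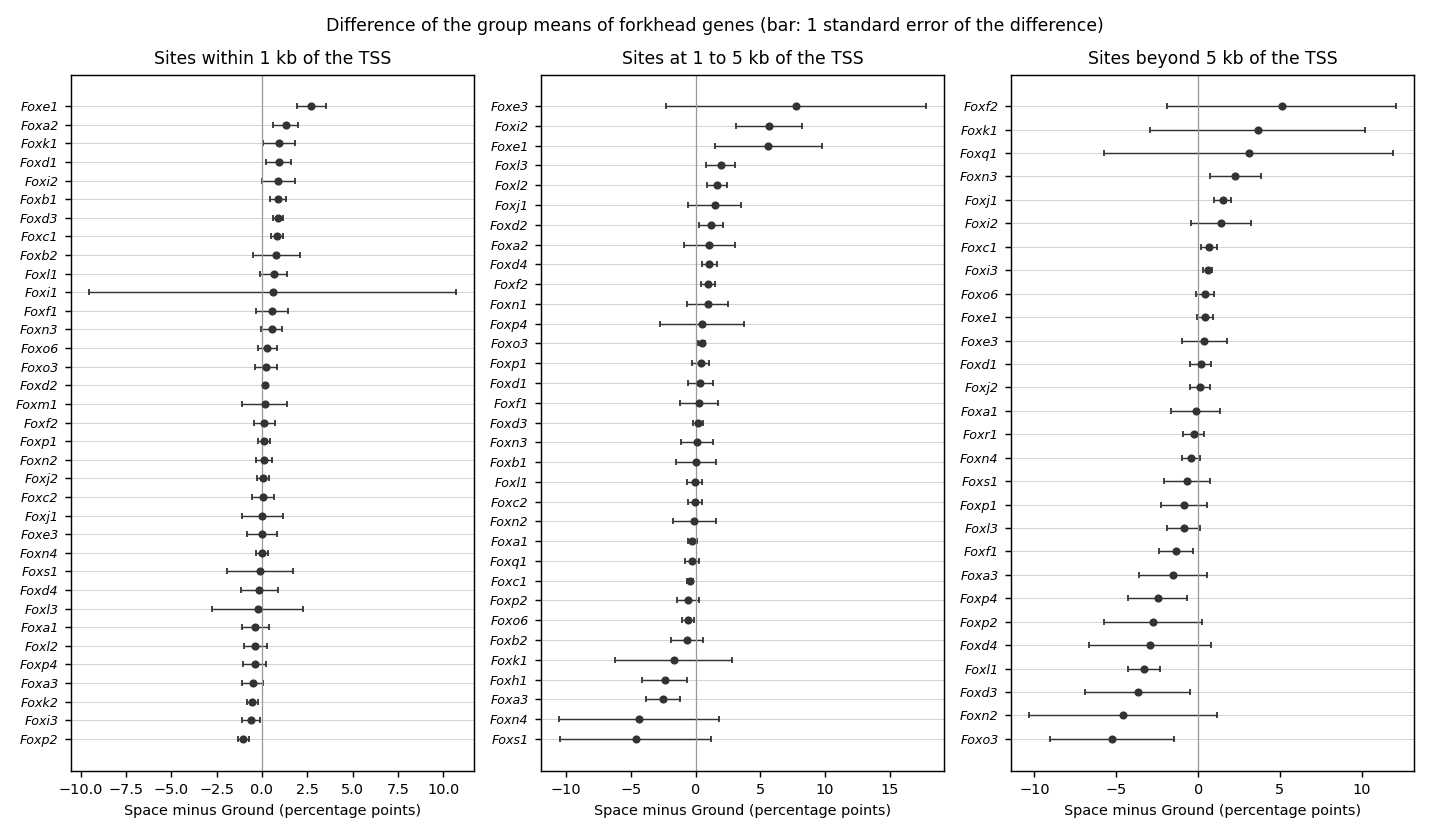
Space minus Ground difference of the mean methylation level in percentage points (x axis) for the forkhead genes reported by name (y axis), with bars of 1 standard error of the difference, in 1 panel for each distance class. Within 1 kb the largest difference is 2.72 points in Foxe1, and no gene of any panel passes the adjusted test.

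At 1 to 5 kb most forkhead genes were still unmethylated, but a minority was not. The median gene level was 2.52%, 27 of 34 genes were under 10% and 3 were over 50%. The mean over genes was 14.1% ± 0.668 (SD, n = 3) in Space and 13.7% ± 0.909 (SD, n = 3) in Ground, a difference of 0.395 points. Foxn1, the thymus epithelium factor lost in nude mice, was the highest at 97.4% over 3 sites. Foxk1 (96.9%) and Foxe3, a lens factor (59.2%), each rested on 1 site. Foxs1 was at 44.3% over 4 sites and Foxp4 at 38.2% over 3 sites.

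Broad unmethylated stretches stood beside these. Foxa1 had 112 sites at 1 to 5 kb with a mean level of 2.04%, Foxc1 121 sites at 2.59%, and Foxq1, a hair-shaft factor without promoter sites here, 136 sites at 1.65%. Foxo3 stayed at 0.949% over 53 sites and Foxc2 at 2.25% over 80 sites. In each of these genes the group difference was smaller than 1 point. Within Foxc2, a stretch of 11 sites 1742 to 1942 bp downstream was at 19.7% in Ground 3 and at 0.433 to 2.33% in the other samples. Its adjusted p was 0.905 in the limma-moderated test.

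No forkhead gene passed at 1 to 5 kb. The limma-moderated test called 0 of 30 genes with 3 or more sites, beside 0% of 5544 genes, with a smallest adjusted p of 0.888. At an unadjusted p under 0.05 there were 3 of 30 genes (10%), against 5.36% of all. edgeR's quasi-likelihood test called 0 genes, with 2 of 30 genes at an unadjusted p under 0.05, beside 244 of all 5544.

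The smallest unadjusted p in this class was that of Foxi2, a relative of Foxi1, with 2.56, 10 and 9.31% in Space and 0, 2.08 and 2.78% in Ground over 6 sites. Space 2 and Space 3 were high, and Space 1 lay below Ground 3. In Ground 1, 0 of 114 reads summed over the 6 sites allows up to 2.63%, or more where sites share reads. In the limma-moderated test p was 0.0177 unadjusted and 0.888 adjusted. Foxl3 measured 5.65, 1.94 and 3.22% in Space and 1.28, 2.18 and 1.53% in Ground over 32 sites, with overlapping groups. Foxl2 measured 2.18, 4.05 and 1.87% in Space and 0.467, 0.935 and 1.65% in Ground over 17 sites, and was the 1 gene of the 30 whose groups did not overlap. Among all genes tested, 5.05% had groups apart with Space higher and 4.47% with Space lower. Foxe1 ranged from 1.33 to 12.7% in Space and from 0 to 6.67% in Ground over 5 sites. The 0 stands for 0 of 85 reads summed over sites, which allows up to 3.53%, or more where sites share reads. Foxd4 measured 2.27% ± 0.614 (SD, n = 3) in Space and 1.23% ± 0.799 (SD, n = 3) in Ground over 31 sites.

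Beyond 5 kb the forkhead genes spread over the whole scale. The median level was 47.2%, 8 of 28 genes were under 10%, 12 were between 10 and 90%, and 8 were over 90%. The mean over genes was 49.9% ± 0.687 (SD, n = 3) in Space and 50.3% ± 1.27 (SD, n = 3) in Ground. The highest levels were those of Foxj1 (98.6%), Foxr1 (98.3%), Foxe3 (97.4%, 1 site), Foxs1 (97.1%) and Foxl3 (97.1%). The lowest were Foxc1 (1.81%), Foxo6 (1.81%) and Foxd1 (1.84%), followed by Foxj2 (2.05%) and Foxf1 (2.41%). Foxp1 was at 94.6% over 6 sites and Foxo3 at 41.1% over 20 sites.

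The limma-moderated test called 0 of 26 genes beyond 5 kb, beside 0% of 14244 genes, with a smallest adjusted p of 0.933. At an unadjusted p under 0.05 there was 1 of 26 genes (3.85%), against 5.19% of all. edgeR's quasi-likelihood test called 0, likewise with 1 gene, beside 660 of all 14244. In the limma-moderated test that gene was Foxj1. It had 99.1, 99.7 and 99.4% in Space and 98.0, 98.7 and 96.9% in Ground over 9 sites. Its groups did not overlap and differed by 1.5 points. Groups also lay apart in Foxi3 (higher in Space) and in Foxl1, a factor of the gut mesenchyme (84.1% in Space and 87.4% in Ground). The shares among all genes were 5.65% for Space higher and 3.89% for Space lower.

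Foxo3 had the largest difference of this class, with 43.3, 39.1 and 33.1% in Space and 48.4, 42.4 and 40.4% in Ground, and its groups overlapped. Foxf1, a factor of lung and gut mesenchyme, measured 1.73% ± 0.557 (SD, n = 3) in Space and 3.09% ± 1.73 (SD, n = 3) in Ground. Foxp4, a relative of Foxp1 expressed in lung and gut, measured 36.2% ± 2.63 (SD, n = 3) and 38.7% ± 1.65 (SD, n = 3). These Foxp4 means join stretches at 0.931 to 3.63% and stretches at 89.8 to 97.9%. Foxn3, a checkpoint repressor, measured 90.5% ± 0.895 (SD, n = 3) and 88.2% ± 2.53 (SD, n = 3).

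The means over genes changed sign between groups when single samples were left out. Within 1 kb the difference of 0.25 points became -0.0586 without Space 1, -0.00941 without Ground 3 and 0.712 without Ground 1. At 1 to 5 kb it became 0.0146 without Space 3, -0.0369 without Ground 3 and 0.869 without Ground 1. Beyond 5 kb the difference of -0.409 points became 0.297 without Ground 1, and -0.936 without Ground 3.

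Genes differed in how methylation changed with distance. In Foxj1 it was 2.04% within 1 kb, 27.0% at 1 to 5 kb and 98.6% beyond. Its stretch 997 to 1158 bp downstream of the TSS measured 1.82% in Space and 1.87% in Ground, and the next one, 2788 to 2821 bp downstream, 79.7% ± 1.36 (SD, n = 3) and 86.8% ± 5.55 (SD, n = 3). Foxn4, a factor of retinal amacrine cells picked for the plot after its values were seen, went from 2.44% to 36.6% and 93.3%. Within its methylated distal part 1 site, 47043 bp downstream, was at 1.80% in Space and 3.34% in Ground.

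In Foxa2 the stretch 1588 to 2624 bp downstream of the TSS measured 5.83% ± 1.71 (SD, n = 3) in Space and 4.48% ± 0.942 (SD, n = 3) in Ground over 45 sites. At its far end, from 2507 bp on, the site means of the groups lay apart, with Space higher at each site. The site at 2546 bp measured 23.7% ± 5.62 (SD, n = 3) in Space and 4.60% ± 3.99 (SD, n = 3) in Ground, that at 2572 bp 17.8% ± 5.89 (SD, n = 3) and 2.38% ± 4.12 (SD, n = 3), and that at 2624 bp 21.7% ± 3.09 (SD, n = 3) and 4.76% ± 4.12 (SD, n = 3). At these 3 sites, singled out after their values were seen, the groups did not overlap, and the adjusted p in the limma-moderated test was 0.838 to 0.857. They were read only 11 to 17 times per sample and lie close enough to share reads, so they are not separate measurements. The next stretch of Foxa2, at 2981 to 3064 bp, was at 50.5% ± 10.1 (SD, n = 3) and 42.9% ± 5.99 (SD, n = 3). Foxo6, a brain FoxO factor, measured 1.65%, 1.82% and 1.81% in the 3 classes, with no region over 10%. Foxd1 was as low, at 2.24%, 1.62% and 1.84%.

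**Figure D4:**
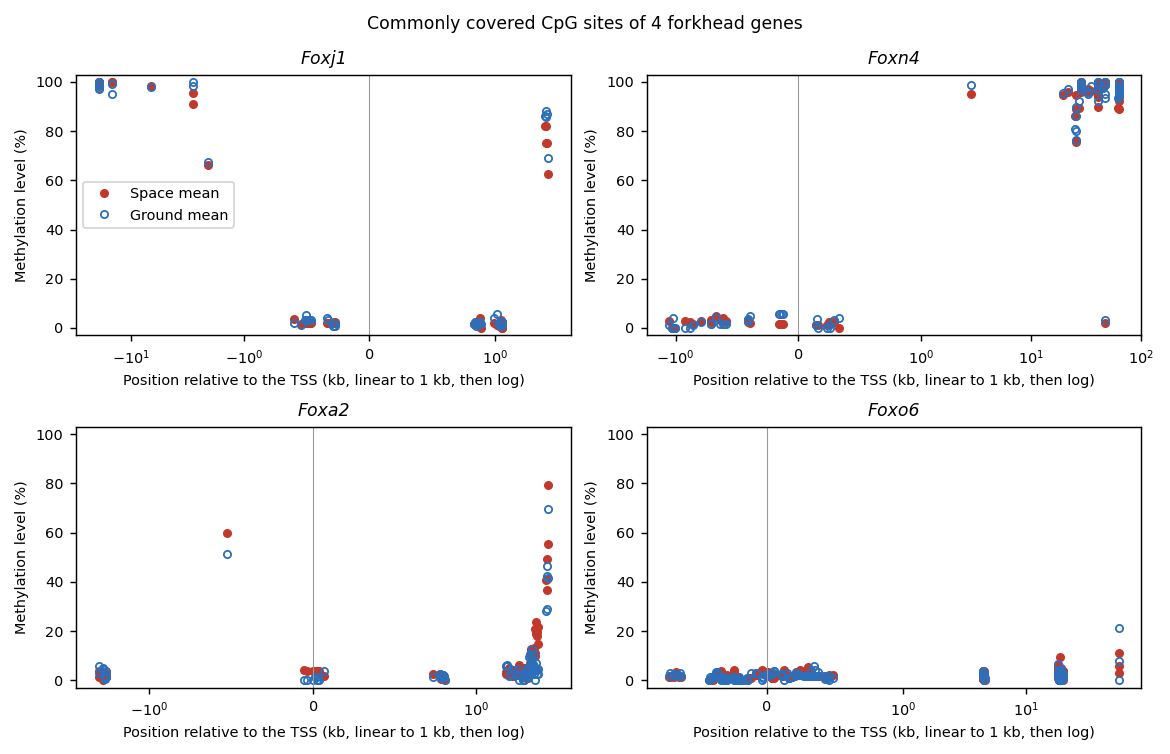
Mean methylation level in percent (y axis) of each commonly covered site in Space (filled red) and Ground (open blue), by position relative to the TSS in kb (x axis, linear to 1 kb and logarithmic beyond). Foxj1, Foxn4 and Foxa2 pass from nearly unmethylated sites near the TSS to methylated ones, while Foxo6 stays low. In Foxa2 the Space means lie above the Ground means at the sites 2507 to 2624 bp downstream.

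Clustered forkhead genes differed in level beyond 5 kb, but their sites there lay at unlike distances. Foxf1, Foxc2 and Foxl1 have their TSS within 43.6 kb on chromosome 8 and measured 2.09, 2.12 and 2.14% within 1 kb. Beyond 5 kb Foxf1 was at 2.41% over 14 sites, none farther than 5324 bp from the TSS. Foxl1 was at 85.8% over 5 sites, up to 35617 bp away, and Foxc2 had no sites there. Foxq1, Foxf2 and Foxc1 lie within 250.5 kb on chromosome 13, and their levels beyond 5 kb were 53.3% (1 site), 62.9% and 1.81%. The Foxq1 site lies 50175 bp away, the 3 sites of Foxf2 up to 6829 bp and the 16 of Foxc1 up to 5420 bp. Whether these genes differ at like distances was not tested.

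The mean level of forkhead sites was low up to 5 kb, as was that of other developmental regulators, and intermediate farther out. The farther mean joins low and high stretches. Of 51 regions wholly beyond 5 kb, 27 were under 10%, 8 between 10 and 90% and 16 over 90%. The mean level of forkhead sites was 1.92% up to 250 bp from the TSS, 2.27% at 1 to 2 kb and 5.93% at 2 to 5 kb, against 2.13%, 11.2% and 29.6% over all autosomal genes. At 5 to 10 kb it was 22.9% (121 sites in 15 genes), where all genes were at 41.0%, Hox genes at 7.01% and Pax, Sox, Gata and Tbx genes at 8.70%. By gene, the median level at 1 to 5 kb was 2.52% for forkhead, 3.64% for Hox, 3.69% for Pax, Sox, Gata and Tbx, and 60.4% for all autosomal genes. Within 1 kb the forkhead median and that of all autosomal genes were both 1.88%. These differences between families were not tested, and the sites of 1 gene share their reads and their locus.

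**Figure D5:**
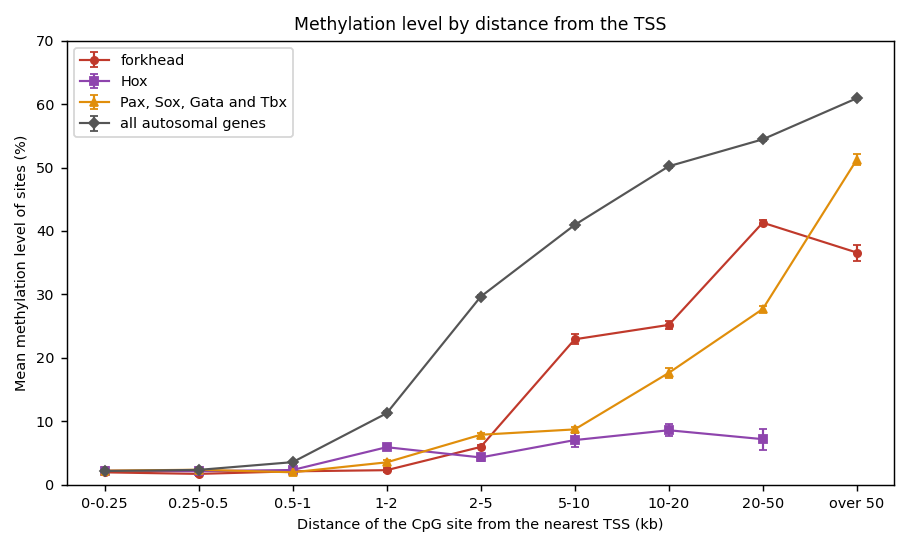
Mean methylation level in percent (y axis) of commonly covered sites by distance from the nearest TSS in kb (x axis) for forkhead, Hox, Pax, Sox, Gata and Tbx, and all autosomal genes, with the SD over the 6 samples as bars and bins of under 20 sites left out. The forkhead means stay under 6% up to 5 kb, where all genes reach 29.6%, and lie between Hox and all genes at 5 to 50 kb.

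Single sites showed the same contrast of low and high levels. Of the 3201 forkhead sites, 2943 (91.9%) were under 10% methylated, 97 (3.03%) between 10 and 90%, and 161 (5.03%) over 90%. Over all autosomal sites these shares were 77.5, 7.48 and 15.1%. At 383 sites (12.0%) no methylated read was found in any sample, against 9.27% of autosomal sites.

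Site by site, no forkhead CpG passed the adjusted test. Of 216 sites with a mean level of 5 to 95%, 0 were called by the limma-moderated test, beside 0% of 92034 sites, and the smallest adjusted p was 0.831. At an unadjusted p under 0.05 there were 15 sites (6.94%), against 5.47% of all. edgeR's quasi-likelihood test gave 8 such sites of 216, beside 3768 of all 92034, and called 0. The median absolute difference was 4.05 points at forkhead sites and 4.25 points at all sites of that range. In simulated data the limma-moderated test called 7% of the sites given a change of 20 points. Calls of 0 therefore do not exclude changes of that size.

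By size alone, 0 forkhead sites were over 20 points higher in Space, where 0.113% of all 681804 commonly covered sites were, and 3 were over 20 points lower (0.0937%), where 0.0826% were. The first, in the Foxd4 locus on chromosome 19 at 24867685 (10875 bp downstream of the TSS), had 42.9, 56 and 44.4% in Space and 92.3, 80 and 78.6% in Ground, with 10 to 25 reads per sample. All Ground samples lay above all Space samples, by 35.9 points in the mean, with an adjusted p of 0.831 in the limma-moderated test. The exact permutation p was 0.1, the smallest that this design allows.

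A Foxa1 site on chromosome 12 at 57562592, 31109 bp downstream, had 37.5, 50 and 70.8% in Space and 71.4, 76.5 and 81.8% in Ground. A Foxp2 site on chromosome 6 at 14948386, 47039 bp downstream, had 81.2, 46.2 and 46.2% in Space and 82.4, 72.2 and 81.0% in Ground, and its groups overlapped. The count was 0 when 20 reads per sample were required and 9 (4 higher, 5 lower) with 5 reads. It was 5 without Space 3, 6 without Ground 2, 5 without Ground 3 and 2 without Ground 1.

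Sites no more than 100 bp apart were joined into regions of 3 or more sites. The 40 genes held 178 regions, of which 148 were under 10% methylated, 12 between 10 and 90% and 18 over 90%. The limma-moderated test called 0 of the 178, beside 0% of 49134 regions, with a smallest adjusted p of 0.905. At an unadjusted p under 0.05 there were 13 regions (7.30%), against 5.36% of all. edgeR's quasi-likelihood test gave 6 such regions of 178, beside 1994 of all 49134, and called 0. The largest difference of any forkhead region was 9.33 points.

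The region with the smallest p, chr4:99544759-99545525 (mm39, 224 to 990 bp downstream of the Foxd3 TSS), had 63 sites. They are among the 70 Foxd3 promoter sites given above. The levels of this region were 2.89, 2.05 and 2.48% in Space and 1.53, 1.36 and 0.984% in Ground, so that the groups did not overlap. The 7 Foxd3 sites at -43 to 34 bp went the other way, with means of 0.937% in Space and 2.97% in Ground and overlapping groups. A Foxb2 region at -2835 to -2642 bp from the TSS (chr19:16853810-16854003) had 0.763, 1.37 and 1.01% in Space and 8.11, 2.91 and 3.89% in Ground. In Foxb2, a neural relative of Foxb1, Ground was the higher group and Ground 1 the highest sample.

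A Foxe1 region 371 to 480 bp downstream (chr4:46343979-46344088) measured 3.31% ± 0.683 (SD, n = 3) in Space and 0.924% ± 0.997 (SD, n = 3) in Ground. The Foxi2 region (chr7:135013584-135013673) holds the 6 sites described for 1 to 5 kb. A Foxq1 region 3728 to 4038 bp downstream (chr13:31743844-31744154) measured 1.69% ± 1.03 (SD, n = 3) and 4.90% ± 3.08 (SD, n = 3), with overlapping groups. The adjusted p of each of these regions was 0.905 in the limma-moderated test.

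The 12 partly methylated regions differed by at most 9.33 points between the groups, and none passed the test. In Foxh1, a partner of Smad proteins in Nodal signalling, a region 4021 to 4124 bp downstream was at 64.0% ± 5.47 (SD, n = 3) in Space and 63.8% ± 5.74 (SD, n = 3) in Ground. A Foxn3 region 32777 to 32833 bp downstream was at 63.5% ± 1.71 (SD, n = 3) and 62.9% ± 2.44 (SD, n = 3). A Foxp2 region upstream of the gene was at 57.3% ± 0.460 (SD, n = 3) and 54.7% ± 2.30 (SD, n = 3). The widest spread was that of the Foxi1 promoter region given above, followed by a Foxo3 region 79381 to 79483 bp downstream, with 20.8, 8.95 and 12.9% in Space and 33.1, 8.82 and 11.1% in Ground over 10 sites. Ground 1 and Space 1 were the highest there, the same samples as at the Foxi1 promoter.

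Far from the TSS, some forkhead genes had unmethylated regions. Of 51 regions lying wholly beyond 5 kb, 27 were under 10%, 8 between 10 and 90% and 16 over 90%. The 27 regions held 332 sites and belonged to 11 genes. By gene, 28.6% of forkhead genes with sites beyond 5 kb were under 10% there, against 8.74% of all autosomal genes. This was shared with the like families, at 62.5% of Hox and 33.3% of Pax, Sox, Gata and Tbx genes. The longest by sites was in Foxo6, 18648 to 19496 bp downstream, with 71 sites at 1.74% in Space and 1.26% in Ground. Foxe1 had 40 sites at -38739 to -38437 bp from the TSS with levels of 1.81% and 1.5%, and Foxd1 had 35 sites 36701 to 37271 bp downstream at 1.81% and 2.03%. Which transcripts or other features lie at these regions was not analysed here.

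Some sites near forkhead genes were assigned to antisense neighbours and are not in the counts above. Foxl2os took 156 commonly covered sites (mean 6.08%), Foxd2os 26 sites (2.66%) and Foxo6os 13 sites (61.9%). The sites carry no strand, so those between a gene and its antisense neighbour cannot be given to 1 of them alone.

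Promoters of proteins that act with forkhead factors were also unmethylated. Of 27 partners and upstream kinases, such as Akt1, Smad4 and Ep300, 22 had sites within 1 kb, all under 10%, with a median of 1.85%. Of these 22 genes, 1 had an unadjusted p under 0.05 and 0 an adjusted one in the limma-moderated test, beside 5.33% and 0% of all genes tested. Akt1, the kinase that keeps FoxO proteins in the cytoplasm, measured 1.90% ± 0.61 (SD, n = 3) in Space and 1.22% ± 0.203 (SD, n = 3) in Ground.

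Of 31 known forkhead target genes, 21 had sites within 1 kb, all under 10%, with a median of 1.68%. Of 20 tested, 2 had an unadjusted p under 0.05 and 0 an adjusted one in the limma-moderated test, beside 5.33% and 0% of all genes tested. Cdkn1b, a cell cycle inhibitor induced by FoxO factors, measured 2.65% ± 1.61 (SD, n = 3) in Space and 1.87% ± 0.506 (SD, n = 3) in Ground, a difference within the spread between replicates. The median of both lists lay close to the 1.88% of all autosomal genes. Since 14295 of 15878 autosomal genes were under 10% within 1 kb, such levels were not particular to these lists.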

How the data were processed

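Genomic DNA of 6 samples (3 Space, 3 Ground) was sequenced by RRBS with the Zymo-Seq kit. The submitters' processing notes name Trim Galore, Bismark 0.24.2, methylKit and build mm39, without role or order. The authors deposited, per CpG site and sample, the count of covering reads and the percent methylated, with the closest TSS and its distance in base pairs. Strands were merged in the deposited table, and duplicate handling and the TSS annotation are not given in the sources used here. Coverage times percent gave whole methylated reads within 0.000266 of a read. Coverage summed over all sites was 28535973 to 33743845 per sample, where a read counts at each site that it covers.

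Sites with 10 or more reads in all samples (681804 of 2268080) were kept. Reads were summed per gene and distance class, and genes with 3 or more sites were tested by a quasi-binomial F test with limma 3.58.1 moderation of the dispersion over all genes and Benjamini-Hochberg adjustment (adjusted p under 0.05). edgeR 4.0.16 was run as an alternative, in R 4.3.3. The scripts were tested on simulated data. Of features given a 20-point change, the limma-moderated test called 51.5% of genes within 1 kb, 82.5% at 1 to 5 kb and 93.5% beyond. It called 51.5% of such regions and 7% of such sites. Other alternatives were coverage minima of 5 and 20 reads, each sample left out, a replicate block, 1 or more sites per gene, sites over 1000 reads left out, a window of 0.5 kb, other averages over sites, and a region gap of 200 bp. Groups came from the sample titles. Same-numbered samples were not from a stated shared culture, though their library names carry consecutive numbers. Their deviations did not correlate above 0.1 in any pair, which does not settle whether they are paired. They were treated as unpaired, with the replicate block as the alternative.

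The genes named were, per class, those with the 5 smallest p and the 5 highest levels, the 5 with the most sites, the 5 regions with the smallest p, sites over 20 points apart, and 10 genes with known germline or gonad roles. Others were named where they were one of a few in a count or after their values were seen. The members, lists and tests were chosen with earlier results of these data known. Promoter windows were matched by symbol in RefSeq GRCm38.p6. Of the forkhead genes with the highest promoter level, Foxs1 had no window. Values of 1 gene counted among the members are not reported here by name, nor shown in the figures.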

Additional observations from a re-analysis of the deposited data

How the results depend on the processing

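The counts of called forkhead genes (in each distance class), sites and regions were 0 with both coverage minima, edgeR, the replicate block and each sample left out. For genes they were also 0 with 1 or more sites per gene and with sites over 1000 reads left out, within 1 kb with the 0.5 kb window, and for regions with the 200 bp gap. The smallest adjusted p of a forkhead gene within 1 kb was 0.451 with the replicate block and 0.756 to 0.999 otherwise. Over all genes, the block called 2 genes within 1 kb and 1 region, none of them forkhead, and leaving out Space 3 or Ground 1 called 1 and 5 sites, none of them forkhead. Whether the numbers of the replicates pair the samples stayed undecided. The mean correlation of deviations was small, at 0.0252 for same-numbered and -0.0126 for other pairs, but 5 of 6 samples correlated best with their own number.

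The count of forkhead sites over 20 points apart was 3 with 10 reads, 9 with 5 reads, 0 with 20 reads, 3 with reads pooled over replicates, and 2 to 6 with 1 sample left out. Fewer sites reach the higher minimum, and at 10 reads a single read moves a level by 10 points. The mean differences over genes moved by less than 1 SD under all alternatives, between -0.0586 and 0.712 points within 1 kb, -0.0369 and 0.869 at 1 to 5 kb, and -0.936 and 0.297 beyond 5 kb. Beyond 5 kb, pooling reads over all forkhead sites gave 0.290 points instead of -0.409. Of 474 values of single genes under an alternative, 461 stayed within 1 SD and 13 moved further.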
